A study of Mus musculus with 6 samples.

Results

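The replication-dependent histone genes were taken as every gene symbol that begins with Hist1h, Hist2h, Hist3h or Hist4h, leaving out symbols that end in -ps, which gave 69 of the 55376 genes in the tables. They comprised 6 genes for the linker histone H1, 20 for H2A, 18 for H2B, 12 for H3 and 13 for H4. On the mm10 build, 56 lay in the Hist1 cluster of chromosome 13, 10 in Hist2 on chromosome 3, 2 in Hist3 on chromosome 11 and 1 in Hist4 on chromosome 6. The annotation held 67 of them as protein coding and 2, Hist1h2aj and Hist1h2al, as pseudogenes.

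Muscle stem cells (SCs, also called satellite cells) are the resident progenitors of skeletal muscle, and CPEB1 is a cytoplasmic protein that binds the cytoplasmic polyadenylation element (CPE) in 3′ UTRs and controls poly(A) tail length and translation. RNA was sequenced from SCs of C57BL/6 mice aged 3 months in 3 groups of 2 libraries: RNA precipitated with an antibody to CPEB1 (CPEB1 IP), RNA precipitated with non-specific IgG (IgG), and RNA with no antibody step (input). Per the study's methods the SCs were freshly isolated (fiSCs) by fluorescence-activated sorting of CD31-, CD45-, Sca1- and Vcam1+ cells. The methods and the design text call the replicates biological, and the labels do not say whether libraries came from separate animals, so p-values measure the spread between these libraries.

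Replication-dependent histone genes are made in S phase to package new DNA. Most have no intron, and their mRNAs usually end not in a poly(A) tail but in a conserved stem-loop that the stem-loop binding protein SLBP holds, with cleavage a few bases downstream directed by the U7 small nuclear RNP. When the upstream cleavage is bypassed, some of these genes give longer, polyadenylated transcripts, which are known from non-dividing and differentiated cells. The replication-independent histones, such as H3.3 and H2A.Z, are made throughout the cell cycle from mRNAs with ordinary poly(A) tails, most of them from genes with introns.

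The 6 libraries held between 1284716 and 4941653 counts on genes, with the 2 IgG libraries the shallowest, and 3 counts in a library corresponded to between 0.607 and 2.34 CPM (counts per 1e+06 counts on genes). Against the library totals implied by the deposited FPKM, 39.5% and 39.1% of the IgG reads lay on genes, and between 69.5% and 79.8% did in the other 4 libraries. All 9 satellite cell markers had counts in every library, at a summed 247 to 305 CPM per kb. The sums were 4.26 to 6.07 for 4 endothelial, 0.424 to 2.28 for 4 haematopoietic, 28.1 to 73.3 for 4 fibro-adipogenic and 2.89 to 7.88 for 4 muscle fibre markers. Of the 6448 and 6179 fibro-adipogenic counts in input, Col3a1 held 6175 and 5905. Dcn had 238 and 250 there, Ly6a 31 and 22 and Pdgfra 4 and 2. The 1106 olfactory receptor genes, most of which are not known to be used in muscle, had between 39 and 854 genes with a count, and their summed level was 0.013 and 0.014 CPM per kb in input, 0.626 and 0.659 in IgG and 0.114 and 0.108 in CPEB1 IP.

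The stem-loop itself was searched in the annotated transcripts as a hairpin of 16 bases, with a perfectly paired stem of 6 bases whose 5′ arm reads GG, then 3 pyrimidines, then T, and a loop of any 4 bases. The transcript models of 46 of the 69 genes (66.7%) held one after the stop codon, against 108 of 21857 other protein-coding genes (0.494%) with a match anywhere in a transcript. Where present, the stem-loop began 21 to 58 bases after the stop codon, with a median of 31. Bases after the stop codon were annotated for 54 of the 69 genes, so a stem-loop missing from a model need not be missing from the gene. The stem-loops of the 5 genes that carried most of the counts and had one in their model are shown with 5 bases on either side, 5′ to 3′ on the gene's own strand, the hairpin in capitals:

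Hist1h1c, chr13:23739507-23739532, plus strand: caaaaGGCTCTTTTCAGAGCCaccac

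Hist1h4d, chr13:23581945-23581970, plus strand: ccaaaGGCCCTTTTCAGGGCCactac

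Hist1h1d, chr13:23555782-23555807, plus strand: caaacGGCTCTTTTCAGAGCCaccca

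Hist3h2a, chr11:58955167-58955192, plus strand: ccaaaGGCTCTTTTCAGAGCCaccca

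Hist4h4, chr6:136803993-136804018, minus strand: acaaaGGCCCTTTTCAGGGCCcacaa

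All 5 lie in the 3′ UTR of a gene model of 1 exon, and they differ between the H4 genes and the others in the paired arms, not in the loop. This split held across the family: the 34 stem-loops outside H4 all had the arm GGCTCT, while 10 of the 12 in H4 genes had GGCCCT and the other 2 had GGTCCT. The 5 of the 8 forms that were found in more than 1 gene are given with the loop in capitals, since loop and arm are where the family varies:

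26 genes, H1, H2A, H2B and H3: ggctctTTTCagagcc

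7 genes, all H4: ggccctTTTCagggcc

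6 genes, H1, H2B and H3: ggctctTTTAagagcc

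2 genes, Hist2h4 and Hist1h4i: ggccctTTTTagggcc

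2 genes, Hist1h4j and Hist1h4b: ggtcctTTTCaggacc

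How far the annotated transcript runs past the stem-loop divided the family into 3 groups of 23 genes each. In the first group the model ended within 100 bases of the stem-loop, mostly further on than the few bases of a cleaved histone mRNA. In the second it ran more than 100 bases past it, and in the third no stem-loop lay in the model. Many models of the third group end at or within 2 bases of the stop codon, too early to hold one. The genes nearest the limit ended 74 and 108 bases past the stem-loop. The limit was chosen after the values had been seen, and the groups are described with no test.

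Counts on the family were few. The 69 genes held 859 counts in all 6 libraries together, which is 0.00513% of the counts on genes, and 22 genes had 0 counts in every library. A count of 0 over all 6 libraries allows a level of up to 0.179 CPM for such a gene, a limit that covers counting error only. Between 20 and 25 of the 69 genes had a count in any one library, and 6 had a count in all 6. The counts were concentrated: Hist1h2bc alone took 30.4% of them, and Hist1h2bc, Hist1h1c and Hist1h4d together took 59.5%.

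The counts lay mostly on genes whose model runs on past the stem-loop, which make up 39.2 of the family's 67.0 kb. Those 23 genes held 61.6% of the family's counts, and 12 of them reached 10 counts over the 6 libraries, among them Hist1h1c, Hist1h4d, Hist1h1d, Hist3h2a and Hist4h4, whose models go 840, 770, 4884, 1643 and 2445 bases past the stem-loop. The 23 genes whose model stops close to the stem-loop held 4.07% of the counts, 10 of them had none, and only Hist1h4h reached 10 counts. Per kb of model, the genes that run on stood at 0.811 and 0.6004 CPM in input, 1.09 and 1.31 in IgG and 0.816 and 0.723 in CPEB1 IP, while those that stop stood at 0.183 and 0.0517 in input, 0.334 and 0.568 in IgG and 0.134 and 0.139 in CPEB1 IP. In each library the genes that run on were therefore higher per kb, and without Hist1h1c and Hist1h4d they still stood at between 0.265 and 0.887 CPM per kb, above the genes that stop in all 6 libraries.

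The models that stop early are also shorter, with a median of 485 against 1249 bases, and more alike one another. Of their stretches of 75 bases, the read length, a median of 56.6% also occurred in transcripts of another gene, against 21.9% for the models that run on, and a read from such a stretch can be placed in one gene only by its mate. Whether reads that map to several places were counted is not given in the sources used here. Across all 69 genes the median was 45.7%, and in 32 genes more than 50% of stretches were shared. The libraries were made by SMART-seq2, which primes on poly(A) tails. The part of tail length, of model length and of shared sequence in these low counts was not tested.

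**Figure D1:**
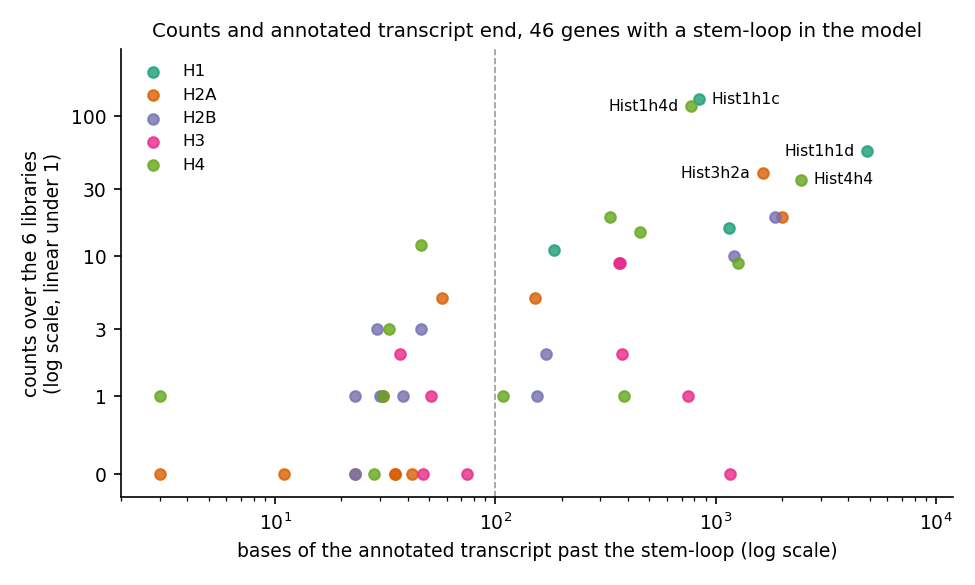
Counts over the 6 libraries (vertical axis, log scale, linear under 1) against the number of bases the annotated transcript runs past its stem-loop (horizontal axis, log scale) for the 46 genes with a stem-loop in the model, coloured by histone class, with the limit of 100 bases dashed. Points can coincide. The 5 named genes, with 35 to 132 counts, all lie to the right of the limit, and the 10 genes to its left with 0 counts lie on the bottom line.

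The gene with most counts, Hist1h2bc (chr13:23684199-23692908, plus strand), fell outside both of these groups. It encodes an H2B, its model has 2 exons and 742 bases after the stop codon, and no stem-loop but 1 AATAAA polyadenylation signal was found there. Without Hist1h2bc, the 22 other genes with no stem-loop in the model held 3.96% of the family's counts and 11 of them had none. They stood at 0.143 and 0.0604 CPM per kb in input, 0.208 and 0.147 in IgG and 0.156 and 0.149 in CPEB1 IP, so in IgG they lay below the genes that stop early. The CPE was searched as TTTTAT or TTTTAAT on the transcript strand. It was present after the stop codon in 15 of the 54 genes with annotated bases there (27.8%). Of other protein-coding genes, 11951 of 21056 (56.8%) had it in their longest 3′ UTR. These stretches were not matched in length, and some of the 54 genes have only 1 or 2 annotated bases there. Between the stop codon and the end of the stem-loop the CPE was found in 2 of 46 genes (4.35%), Hist1h3c and Hist1h4a. In the first 47 bases after the stop codon it was found in 538 of 20755 other genes (2.59%). None was found after the stop codon of Hist1h2bc or Hist1h1c, 1 was found in Hist1h4d, 1 in Hist3h2a, 3 in Hist4h4 and 12 in Hist1h1d.

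In input, the family had the counts of rare transcripts, in libraries primed on the poly(A) tails that its mRNAs usually lack. Its summed level was 0.835 and 0.774 CPM per kb, against 70.3 and 85.0 for the 11 replication-independent histone genes and 4.66 and 5.11 for 14 genes of proliferating cells. The latter differed widely: Pcna was highest, at 44.2 and 55.2, while Mki67, at 0.486 and 0.420, and Top2a, at 0.848 and 0.837, lay below or close to the family. Hist1h2bc led the family, followed at a distance by Hist1h4d and Hist1h1c, which did not differ beyond their spread. In these bulk libraries, few cells that hold a transcript, little of it per cell and little of it captured cannot be told apart.

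Hist1h2bc had 65 and 89 counts in input, 13 and 10 in IgG and 27 and 57 in CPEB1 IP. Per kb this was 17.2 and 23.2 CPM in input, 8.75 and 6.37 in IgG and 9.11 and 9.98 in CPEB1 IP. Both input libraries lay above all 4 precipitates, and the IgG and CPEB1 IP libraries did not overlap but lay close together.

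Hist1h1c, which encodes the linker histone H1.2, had 24 and 26 counts in input, 4 and 12 in IgG and 23 and 43 in CPEB1 IP. Per kb it stood at 4.70 and 5.03 CPM in input, 2.00 and 5.66 in IgG and 5.75 and 5.58 in CPEB1 IP. The 2 IgG libraries were farther apart than any other pair and enclosed the input values.

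Hist1h4d, one of the genes that encode the same H4 protein, had 18 and 20 counts in input, 12 and 14 in IgG and 18 and 36 in CPEB1 IP. Per kb this was 4.84 and 5.30 CPM in input, 8.21 and 9.05 in IgG and 6.17 and 6.402 in CPEB1 IP. The 3 groups did not overlap, with input lowest and IgG highest.

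Hist4h4, the only gene of the Hist4 locus (chr6:136801553-136804415, minus strand), had 3 and 4 counts in input, 7 and 8 in IgG and 5 and 8 in CPEB1 IP. Its levels of 0.320 and 0.422 CPM per kb in input, 1.903 and 2.06 in IgG and 0.681 and 0.565 in CPEB1 IP kept the same order, with no overlap. Hist1h1d, the linker histone H1.3 (chr13:23553262-23560686, plus strand), has the longest model of the family at 7425 bases. It had 10 and 2 counts in input, 9 and 12 in IgG and 11 and 12 in CPEB1 IP, and its level of 0.943 and 1.19 CPM per kb in IgG lay above the other 4 libraries, which ranged from 0.0813 to 0.578.

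Of the other linker histones, Hist1h1e (H1.4) had 7 and 2 counts in input, 2 and 1 in IgG and 0 and 4 in CPEB1 IP. Hist1h1t, the testis form, had 4 and 1, 2 and 0, and 2 and 2 in the same order. Hist1h1a and Hist1h1b, the H1.1 and H1.5 genes, had at most 2 counts in any library. All 4 were under the filter on low counts of the edgeR test in every comparison.

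The remaining genes that stood among the 6 highest per kb in a group did so on few counts. Hist3h2a, an H2A gene, had 15 and 7 counts in input, 0 and 4 in IgG and 9 and 4 in CPEB1 IP. Its exons overlap those of Trim17 on the same strand. Hist1h4i had 3 and 2, 0 and 3, and 3 and 8 counts in input, IgG and CPEB1 IP, Hist1h4c had 0 and 2, 4 and 2, and 1 and 6, and Hist1h4h had 1 and 1, 0 and 4, and 2 and 4. Hist1h4f had its 3 counts in the first input library only, Hist1h3i had at most 2 in a library and Hist1h3e had 4 and 3 in CPEB1 IP and at most 1 elsewhere. Each of these 7 genes had at least 1 library at 0.

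**Figure D2:**
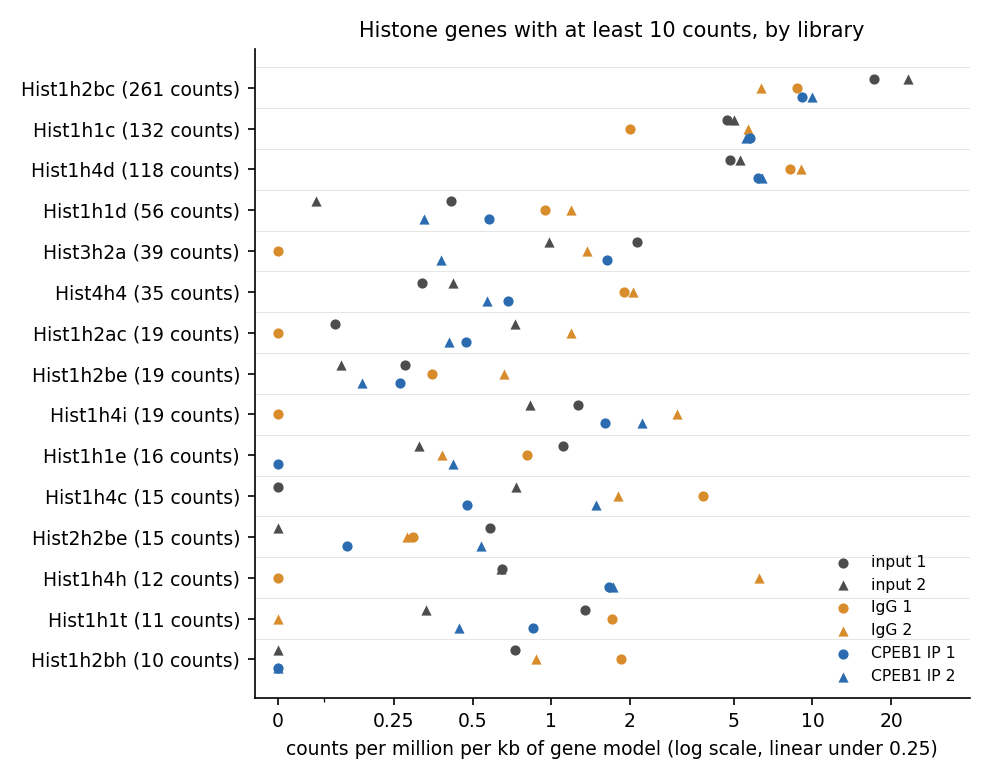
Level of the 15 genes with at least 10 counts over the 6 libraries, in CPM per kb of gene model (horizontal axis, log scale, linear under 0.25), ordered by total count, with the 2 libraries of each group as a circle and a triangle. Hist1h2bc is highest in both input libraries, Hist4h4 and Hist1h1d are highest in both IgG libraries, and most genes below Hist4h4 have a library at 0.

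The exons of 26 of the 69 genes overlap another gene, 7 of them on the same strand and 23 on the other strand, and 4 of the 15 genes with at least 10 counts are among the 26. Whether reads were counted by strand is not given in the sources used here, so the counts of these genes are uncertain. None of Hist1h2bc, Hist1h1c, Hist1h4d, Hist1h1d and Hist4h4 has such an overlap, and 27.1%, 6.66%, 3.67%, 1.47% and 5.39% of their 75-base stretches are shared with other genes.

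By class, H2B was highest in input and H4 was highest in IgG. The 13 H4 genes summed to 0.870 and 0.803 CPM per kb in input, 2.14 and 2.16 in IgG and 1.04 and 1.21 in CPEB1 IP, with no overlap between groups. The 18 H2B genes, of which Hist1h2bc is one, ran the other way, with 1.27 and 1.37 in input, 0.933 and 0.698 in IgG and 0.643 and 0.707 in CPEB1 IP, where IgG and CPEB1 IP overlapped. The 12 H3 genes stood at 0.125 and 0.0922 in input, 0.317 and 0.525 in IgG and 0.159 and 0.144 in CPEB1 IP. The H1 genes, at 0.771 to 1.44, and the H2A genes, at 0.120 to 0.472, overlapped between all groups. H3 rested on at most 7 counts in a library, and these sums carry no test.

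**Figure D3:**
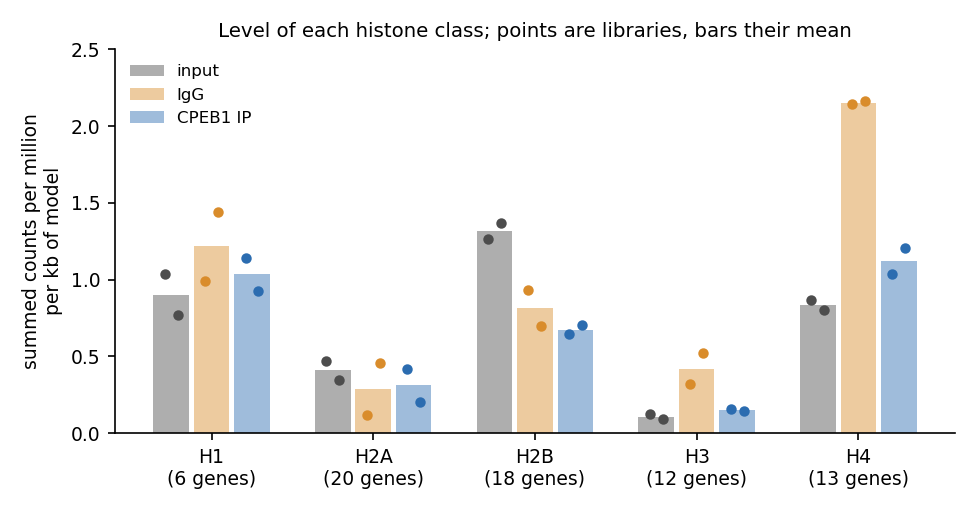
Summed level of each histone class in CPM per kb of gene model, with a bar for the mean of the 2 libraries of a group and a point for each library. The H4 bar is highest in IgG, at 2.14 and 2.16, and the H2B bar is highest in input, at 1.27 and 1.37.

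Beside the olfactory receptor genes of the same library, the family differed by group. Per kb its summed level was 62.2 and 57.0 times theirs in input, 6.06 and 6.04 times in CPEB1 IP and 1.43 and 1.53 times in IgG. Without Hist1h2bc, Hist1h1c and Hist1h4d, the other 66 genes stood at 27.4 and 13.0 times in input and 2.75 and 2.37 times in CPEB1 IP, and at 0.945 and 0.990 times in IgG. In IgG the summed level per kb of those 66 genes was thus close to that of the olfactory receptor genes. Hist4h4 was at 3.04 and 3.12 times and Hist1h1d at 1.51 and 1.80 times the olfactory receptor level in IgG. The part of such counts in the IgG values of the histone genes was not tested.

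**Figure D4:**
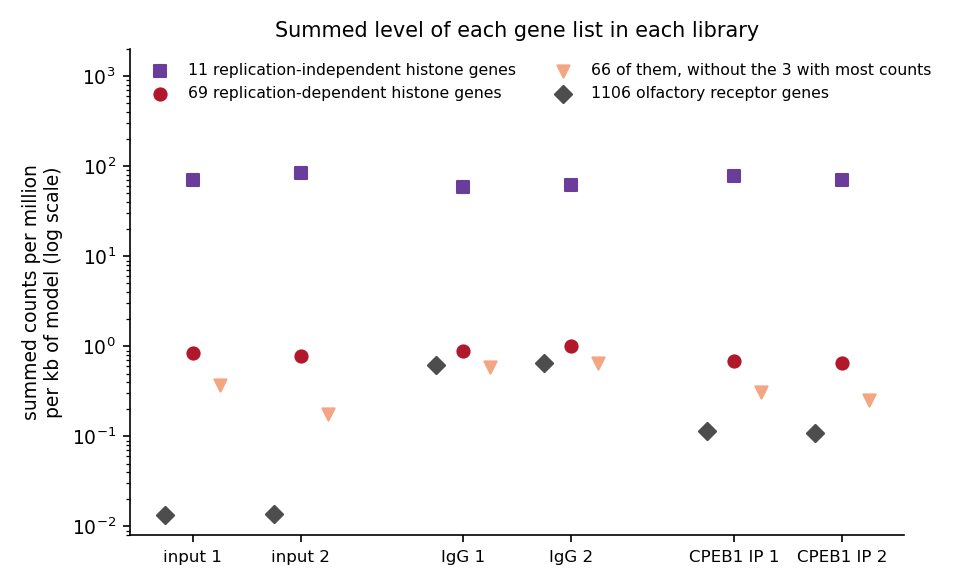
Summed CPM per kb of gene model (vertical axis, log scale) of 4 gene lists in each of the 6 libraries, with symbols set slightly apart. The 66 histone genes other than the 3 with most counts and the olfactory receptors sit at 0.592 and 0.626 in IgG 1 and at 0.652 and 0.659 in IgG 2, and lie apart in input and CPEB1 IP, while the replication-independent histones stay between 58.6 and 85.0.

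IgG against input shows what a precipitation without a specific antibody held. Of the family, 5 genes passed the filter on low counts. Hist4h4 rose by a log2 fold change of 2.299 (SE 0.65, adjusted p = 0.00425), Hist1h1d rose by 2.03 (SE 0.62, adjusted p = 0.00820) and Hist1h2bc fell by 1.48 (SE 0.41, adjusted p = 0.00342), all in the quasi-likelihood test of edgeR with Benjamini-Hochberg adjustment over all genes tested. Hist1h4d, at 0.70 (adjusted p = 0.268), and Hist1h1c, at -0.39 (adjusted p = 0.5997), did not pass. That makes 2 genes higher and 1 lower, where 21.4% and 19.4% of the 12980 genes tested were higher and lower. Hist4h4 and Hist1h1d passed the filter through the IgG libraries alone, so a rise in IgG was favoured by the choice of genes tested, and with no filter their adjusted p was 0.0640 and 0.0990.

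The fall of Hist1h2bc kept its call without any one of the 4 libraries. The 2 rises did not. Without input 1 Hist1h1d still passed, and without input 2, IgG 1 or IgG 2 its adjusted p was 0.328, 0.0604 or 0.131. Hist4h4 had an adjusted p of 0.105 without IgG 1 and fell under the filter without any of the other 3 libraries. DESeq2 gave an adjusted p of 0.299 for each of the rises and 0.0757 for the fall.

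CPEB1 IP against IgG is the comparison by which the study sought transcripts that associate with CPEB1. No gene of the family was higher in the CPEB1 IP at an adjusted or an unadjusted p under 0.05. This was 0 of 5 genes by edgeR and 0 of 40 genes with a p by DESeq2. Of the 12124 genes tested by edgeR, 14.7% were higher, and DESeq2 called 2619 of them higher. Only 15 genes of the family reached 10 counts over the 6 libraries, so most of the 40 held few counts and the 0 of 40 carries little weight. Hist4h4 was lower by a log2 fold change of -1.66 (SE 0.51, adjusted p = 0.0164) and Hist1h1d by -1.30 (SE 0.49, adjusted p = 0.0472), where 18.7% of all genes tested were lower. Hist1h2bc stood at 0.37 (SE 0.41, adjusted p = 0.531), Hist1h1c at 0.56 (SE 0.49, adjusted p = 0.413) and Hist1h4d at -0.44 (SE 0.42, adjusted p = 0.463). Here too Hist4h4 and Hist1h1d passed the filter through the IgG libraries alone, which favoured a fall, and with no filter their adjusted p was 0.272 and 0.373. With the libraries paired by experiment as a replicate block, it was 0.0297 for Hist4h4 and 0.0603 for Hist1h1d. The IgG libraries are shared with the previous comparison, so the fall of Hist4h4 and Hist1h1d here and their rise there rest on the same 2 IgG libraries.

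Neither fall was kept when a library was left out. For Hist1h1d the adjusted p became 0.126 without IgG 1, 0.293 without IgG 2, 0.298 without CPEB1 IP 1 and 0.605 without CPEB1 IP 2. For Hist4h4 it became 0.134 without IgG 1 and 0.154 without IgG 2, and the gene was no longer tested without either CPEB1 IP library. Scaled to the library totals implied by the FPKM instead of by TMM, a change that moved the median of all genes from -0.01 to 0.80, the comparison gave 0 lower and 2 higher genes, Hist1h2bc at 1.17 (adjusted p = 0.0137) and Hist1h1c at 1.36 (adjusted p = 0.0145). Relative to the shifted median these were 0.37 and 0.57, and of all 12124 genes 7149 were higher and 937 lower under this scaling. With TMM scaling, 32 of 215 other protein-coding genes of 1 exon were higher and 20 lower.

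The study also asked for a ratio of FPKM in the CPEB1 IP over FPKM in IgG above 2 in both experiments. With 1 added to each FPKM, 0 of the 69 genes met this, against 3.35% of all 55376 genes. A gene at or below an FPKM of 1 in a CPEB1 IP library cannot meet it. Of the family, only Hist1h2bc, Hist1h1c, Hist1h4d, Hist1h4i and Hist1h4h were above 1 in both CPEB1 IP libraries, so for the others the outcome was fixed. Hist1h1c came closest, with ratios of 2.80 and 1.52 in experiments 1 and 2, and Hist1h2bc had 1.65 and 2.28. In experiment 1 alone 4 genes exceeded 2, which were Hist1h1c, Hist1h4h, Hist3h2a and Hist1h4i, and in experiment 2 alone Hist1h2bc did. These single-experiment counts rest on the added 1. On the FPKM as deposited, of the genes above 0 in IgG, Hist1h1c and Hist1h3e exceeded 2 in experiment 1 and Hist1h2bc and Hist2h2be in experiment 2, and 0 of the 13 genes above 0 in both IgG libraries did in both. With 0.1 or 5 added, 0 of the 69 met the criterion.

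CPEB1 IP against input compares the precipitate with the RNA of the cells. Hist1h2bc fell by 0.997 on the log2 scale (SE 0.28, adjusted p = 0.0149), and no gene of the family rose (edgeR, 0 of 5, also at an unadjusted p under 0.05, and DESeq2, 0 of 40 at either). Of the 12171 genes tested by edgeR, 17.0% were higher and 15.8% lower, and DESeq2 called 1230 of them higher and 1190 lower. Most of the 40 genes held few counts here too. Hist1h1d stood at 0.86 (SE 0.67, adjusted p = 0.349), Hist1h4d at 0.39 (SE 0.38, adjusted p = 0.471), Hist1h1c at 0.29 (SE 0.35, adjusted p = 0.558) and Hist3h2a at -0.77 (SE 0.69, adjusted p = 0.421). The fall of Hist1h2bc missed the threshold without input 2 (adjusted p = 0.0531), CPEB1 IP 1 (0.0639) or CPEB1 IP 2 (0.0586), and with DESeq2 (0.0697), while its size stayed between 0.75 and 1.24 on the log2 scale over all settings. Its levels in IgG and CPEB1 IP lay on the same side of input, and the 2 comparisons share the input libraries.

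**Figure D5:**
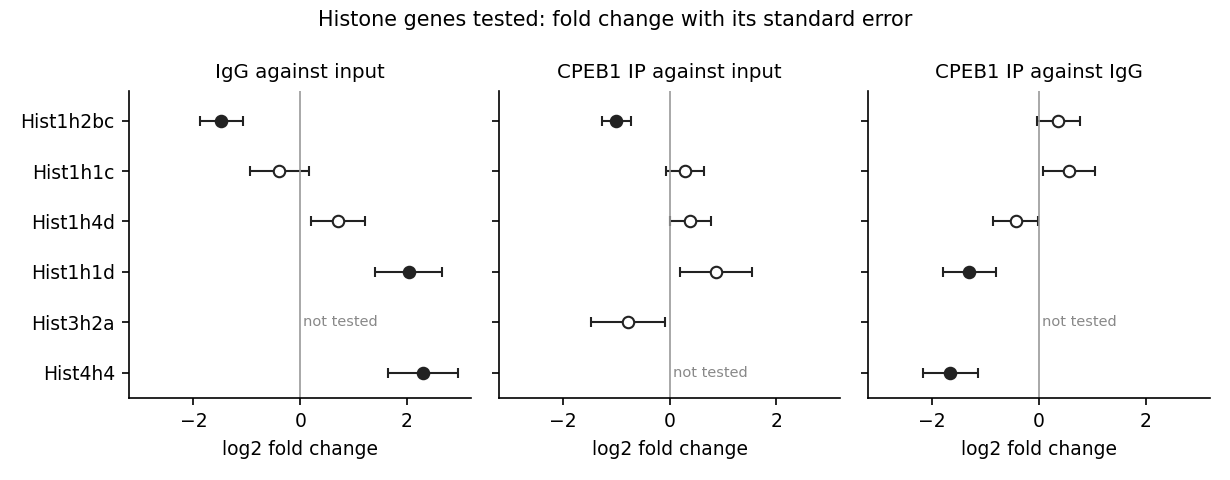
Log2 fold change of each histone gene that passed the filter on low counts (horizontal axis) in the 3 comparisons, with bars of 1 standard error and filled points where the adjusted p was under 0.05. Hist1h2bc is below 0 in both comparisons with input, and Hist4h4 and Hist1h1d are above 0 in IgG against input and below 0 in CPEB1 IP against IgG.

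The replication-independent histone genes, some of which, such as H1f0 and H2afx, have no intron, were measured with far more counts. Of all genes tested, 14.7% were higher and 18.7% lower in CPEB1 IP against IgG, and 17.0% and 15.8% in CPEB1 IP against input. In IgG against input these shares were 21.4% and 19.4%. Of the 11 in the list, 9 were tested in each comparison. In CPEB1 IP against IgG, 4 were higher and 0 lower: H2afx, the damage-marking H2A.X, by 0.74 (SE 0.29, adjusted p = 0.0499), H2afv by 0.55 (SE 0.14, adjusted p = 0.00445), H3f3b, an H3.3 gene, by 0.34 (SE 0.10, adjusted p = 0.0151) and H2afz, which encodes H2A.Z, by 0.33 (SE 0.10, adjusted p = 0.0162). No fall had an unadjusted p under 0.05 in edgeR or in DESeq2. Each of the 4 rises lost its call without some library: H2afx without IgG 2 (adjusted p = 0.503), CPEB1 IP 1 (0.0779) or CPEB1 IP 2 (0.0623), H2afv without CPEB1 IP 2 (0.109), H3f3b without IgG 1 (0.0875) and H2afz without CPEB1 IP 1 (0.117). H3f3a, the other H3.3 gene, stood at 0.18 (adjusted p = 0.225) and H1f0, the linker histone of differentiated cells, at 0.59 (adjusted p = 0.0657).

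Against input, 4 of the 9 were higher in the CPEB1 IP and 1 lower. H2afj stood at 1.15, H2afz at 0.83, H2afy at 0.66 and H2afx at 0.62, and H1f0 fell by 0.88 (adjusted p = 0.00216). In IgG against input 3 of the 9 were also higher, H2afj, H2afz and H2afy, and 2 were lower, H1f0 and H3f3b. H2afj stood at 9.52 and 10.4 CPM per kb in input, 17.4 and 21.7 in IgG and 19.8 and 21.9 in CPEB1 IP. For H3f3b the levels were 530 and 672, 386 and 428, and 543 and 470 in the same order. H1f0 had 199 and 233 counts in input, 29 and 31 in IgG and 83 and 173 in CPEB1 IP, so it was high in input and low in both kinds of precipitate, the order that Hist1h2bc had, and it was also lower in IgG than in input, by -1.59 (adjusted p = 4.49e-06). H2afx is known to give a transcript with a stem-loop end besides its polyadenylated one. It had 104 and 81 counts in input, 47 and 18 in IgG and 106 and 200 in CPEB1 IP, and per kb, at 9.57 to 29.9 CPM, it stood above every replication-dependent gene in 5 of the 6 libraries, the exception being input 2, where Hist1h2bc was higher. In CPEB1 IP against input, the rises of H2afj and H2afz and the fall of H1f0 kept their call without any one library. H2afy lost its call there without either CPEB1 IP library, and H2afx did so without input 2 and without either CPEB1 IP library. The fall of H1f0 in IgG against input also kept its call without any one library.

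The genes whose products make and destroy histone mRNA were detected throughout, with all 23 counted in all 6 libraries. Slbp, which encodes the stem-loop binding protein, had 298 and 302 counts in input, 87 and 60 in IgG and 184 and 313 in CPEB1 IP. It was lower in IgG than in input by -0.77 (SE 0.21, adjusted p = 0.00375) and stood at 0.29 in CPEB1 IP against IgG (adjusted p = 0.258) and at -0.36 in CPEB1 IP against input (adjusted p = 0.0881). The fall in IgG lost its call without IgG 2 (adjusted p = 0.206). In CPEB1 IP against IgG, 5 of 21 genes tested were higher and 0 lower, where 14.7% and 18.7% of all genes tested were. In the list, 2 were lower at an unadjusted p under 0.05 in edgeR and 0 in DESeq2. The 4 largest rises were those of Ctif (1.28), a cap-binding complex partner in histone mRNA decay, Cpsf2 (1.02), a subunit of the cleavage complex, Cstf2t (0.81), a cleavage stimulation factor, and Casp8ap2 (0.69), the FLASH protein of the U7 machinery. Of these 4, Cpsf2 alone kept its call without any one library. Cpsf2 was also called lower in IgG than in input, with 9.34 and 9.26 CPM per kb in input and 5.30 and 4.75 in IgG. In CPEB1 IP against input Cpsf2 was not called, at 0.19 (SE 0.16, adjusted p = 0.377). Its rise over IgG thus came with a low level in IgG and no called change from input. In CPEB1 IP against input 3 of 22 were higher and 3 lower (13.6% each), near the 17.0% and 15.8% of all genes tested. The higher ones were Lsm1 (1.04), Upf1 (0.93) and Npat (0.91), the last being the coactivator of histone transcription. The lower ones were Cpsf3 (-1.83), the endonuclease that cleaves histone pre-mRNA, Cstf2t (-0.71) and Cstf2 (-0.64). Lsm1 and Cpsf3 kept their call without any one library, and the other 4 lost it without CPEB1 IP 2 (adjusted p = 0.0882 to 0.162), Cstf2 also without CPEB1 IP 1 (0.114). In IgG against input 3 of 22 were higher and 6 lower, where 21.4% and 19.4% of all genes tested were. The 3 higher were Lsm11, Upf1 and Npat, and the largest falls were those of Cpsf3, Cstf2t, Cpsf2 and Cstf2. Upf1, Npat, Cpsf3, Cstf2t and Cstf2 were thus called in the same direction against input in both precipitates, and Lsm1 was not called in IgG. Upf1 stood at 4.97 and 3.33 CPM per kb in input, 10.1 and 11.5 in IgG and 6.92 and 7.93 in CPEB1 IP.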

How the data were processed

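The data were 6 RNA-seq libraries of freshly isolated mouse muscle stem cells, 2 each of input, IgG and CPEB1 IP, prepared with SMART-seq2. The authors aligned reads to mm10 (HISAT 2.1.0, Samtools 1.9) and deposited raw read counts per gene from featureCounts 1.5.1 and, per the labels, FPKM values. FPKM were deposited per library and were used for the study's ratio and to derive library totals. Groups came from the sample titles. The study set each CPEB1 IP against the IgG of its own experiment, and the correlation of deviations of same-numbered libraries was -0.01 there.

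Counts were tested in edgeR 4.0.16 (R 4.3.3) on the 2 groups compared, after filterByExpr and TMM scaling, by the quasi-likelihood test with Benjamini-Hochberg adjustment over all genes tested, called at 0.05. The SE was taken as the log2 fold change over the root of its F. CPM is the share of counts on genes, times 1e+06, and per kb divides by the deposited gene length. Depth ran from 1284716 to 4941653 counts, so a floor of 3 counts was 0.607 to 2.34 CPM. Sequences, stop codons and gene types came from GENCODE M21 transcripts, in which all 69 genes had the ends given in the deposited tables.

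Named genes were up to 6 family members per direction and comparison with the largest called change, the 6 highest per kb in each group, the linker histones, and from the other lists Slbp, H2afx, H2afz, H3f3a, H3f3b, H1f0 and up to 4 called genes per direction. Members, lists and tests were chosen with earlier results of these data known. Genes of the cell type, chaperone and proliferation lists are given by counts and levels only. Of 23 histone chaperone genes, 7 were higher and 0 lower of 18 tested in CPEB1 IP against IgG (0 lower also at an unadjusted p and in DESeq2). Of 21 tested, 6 were higher and 6 lower in CPEB1 IP against input, and 3 and 7 in IgG against input. The shares of all genes tested were 14.7% and 18.7%, 17.0% and 15.8%, and 21.4% and 19.4% in these comparisons. Alternatives were DESeq2 1.42.0, other scalings, no filter, a replicate block, 1 fit of all libraries and leaving out each library.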

Additional observations from a re-analysis of the deposited data

How the results depend on the processing

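The histone calls rest on few counts, and most were lost when the processing changed. For genes lower in CPEB1 IP against IgG, the count of 2 became 0 with DESeq2, 0 with FPKM library totals, 1 with no filter (Hist1h2bh), 0 with all 6 libraries in one fit and 0 to 0 when a library was left out. Genes higher in that comparison went from 0 to 2 with FPKM library totals, where 7149 of all 12124 genes were higher. For CPEB1 IP against input the 1 lower gene became 0 with DESeq2 and 0 to 1 when a library was left out. For IgG against input the 2 higher genes became 0 with DESeq2, 0 with FPKM library totals, 0 with no filter and 0 to 1 when a library was left out, and the 1 lower gene became 0 with DESeq2 and 2 with FPKM library totals. With FPKM library totals, 7180 of all 12980 genes were lower in IgG against input. The FPKM criterion, met by 0 genes in both experiments, was met by 1 to 4 in a single one. These causes were not tested.

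FPKM library totals turned the sign of Hist1h4d in CPEB1 IP against IgG (0.37) and in IgG against input (-0.17), of H3f3a in CPEB1 IP against input (-0.054), and of H2afz (-0.51), H2afy (-0.29) and Npat (-0.11) in IgG against input. This scaling moved the median of all genes to 0.80, -0.19 and -0.85 in CPEB1 IP against IgG, CPEB1 IP against input and IgG against input, and relative to it Hist1h4d stayed at -0.43 and 0.68 in the first and the last. Leaving out a library gave Hist3h2a a range of -1.94 to 0.14 (the latter without CPEB1 IP 2) and H3f3b one of -0.38 to 0.028 (without input 2) in CPEB1 IP against input, and H2afx one of -1.15 to 0.29 (without IgG 2) and Hist1h1c one of -1.36 to 0.15 (without IgG 1) in IgG against input. The summed level of the family, with scalings chosen after seeing the data, had a log2 ratio of -0.50 in CPEB1 IP against IgG and 0.24 in IgG against input per count on genes, and 0.32 and -0.69 per FPKM library total. In these comparisons the direction of the sum follows from what the counts are divided by. In CPEB1 IP against input its log2 ratio was -0.26 per count on genes, -0.22 with TMM library sizes and -0.37 per FPKM library total. The share of calls that were higher moved with the scaling from 44.0% to 88.4% in CPEB1 IP against IgG, from 51.9% to 31.0% in CPEB1 IP against input and from 52.4% to 13.4% in IgG against input, while DESeq2 gave 78.3%, 50.8% and 33.6%.

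Same-numbered libraries did not deviate together (correlation of deviations -0.01, -0.03 and 0.03 in the 3 comparisons), although the study pairs CPEB1 IP and IgG by experiment. With the replicate block the genes lower in CPEB1 IP against IgG went from 2 to 1 (Hist4h4), with no other count of histone genes changed.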

Other observations

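The 1 histone gene of these loci left out for its name, Hist3h2bb-ps, had 1 count in the first input library, 1 in the first CPEB1 IP library and 0 in the other 4. Of 6 other RNAs without a poly(A) tail, 5 had counts, and their summed level was 0.470 and 1.698 CPM per kb in input, 1.99 and 3.01 in IgG and 2.20 and 4.35 in CPEB1 IP, above the histone genes in 5 of the 6 libraries. Of their 80 counts, 72 lay on Rn7sk, which encodes the 7SK RNA and is named here after its values were seen. In CPEB1 IP against input Rn7sk was higher by 1.77 on the log2 scale (edgeR, adjusted p = 0.0297), a call lost without input 1 (adjusted p = 0.139) or CPEB1 IP 2 (0.448). None of the 6 passed the filter in the other 2 comparisons.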
